A study of Daphnia magna with 24 samples.

Results

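The features described here are 160 spots of a cDNA microarray of the water flea Daphnia magna whose log ratio was moderately negative in all water taken from the mine drainage entry of Greenhorn Mine and from both sites below it. They were chosen from 7680 features on the array, of which 7388 had a value in 2 or more exposures at each of the 4 sites. Arrays were median-centred, and the dye-swap pair of an exposure was averaged. A feature was taken when every exposure at the drainage entry, downstream 1 and downstream 2 was below 0, each of these 3 site means was at most -0.4, and their mean was above -1.0 and at most -0.6. All values of these 3 sites against control were therefore used in the choice, and they are given as a description. Upstream values, the difference between dye-swap arrays and the order of the 3 sites were not used.

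Adult females of a genetically homogeneous stock, 14 to 16 days old, were kept for 24 h at 23.5 °C, and each exposure pooled 10 to 15 whole animals. The groups were water from the drainage entry, from downstream 1, from downstream 2 and from upstream of the mine, with 3 exposures each. The control was unexposed animals in COMBO, a defined freshwater medium for zooplankton, and stood as the other channel of each of the 24 arrays. All groups thus share that control medium, and a value against control also sets field water against COMBO. The 3 exposures of a site carry one label for their water, so separate collections are not shown.

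Daphnids are small filter-feeding crustaceans that take up dissolved metals directly from the water. Copper, by which the sites were said to differ, is needed by enzymes such as cytochrome c oxidase and is toxic in excess, when it disturbs sodium uptake. Metallothioneins, small proteins that bind copper, zinc and cadmium, are a well-known part of the daphnid response to metals. The copper contents of the waters were not used here. The features carry array IDs only, and 0 of 7680 matched a table of Daphnia magna genes, so no gene names or functions are given to them.

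The labels do not state which channel is on top of the ratio. A negative value likely stands for less RNA in exposed animals, because the design text sets field exposures against the control and the second channel holds the exposed RNA, and signs are given as negative and positive. The base of the logarithm is not stated either and is taken as 2. Whole animals were extracted, so less RNA per cell and fewer cells of a type cannot be told apart. The arrays held 7015 to 7472 measured features each. Over all tested features, exposures of a site correlated at a mean r of 0.40 for entry water, 0.49 for downstream 1 water and 0.51 for downstream 2 water, against -0.11 for upstream water. Every one of the 160 features had a value in all 12 exposures, and 138 had one on all 24 arrays (86.2%, against 68.7% of all tested features). These shares describe how completely the spots were measured, since the number of arrays and not a read depth sets the precision.

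The 160 features were most negative at downstream 2 and least at downstream 1. Their median site mean was -0.82 in entry water, -0.61 in downstream 1 water and -0.89 in downstream 2 water, against 0.16 in upstream water. With a base of 2 these medians are ratios of 0.566, 0.656, 0.539 and 1.12. Site means of single features ran from -1.20 to -0.46 in entry water, from -0.97 to -0.40 in downstream 1 water and from -1.32 to -0.45 in downstream 2 water. The medians of all tested features lay at -0.02, 0.02 and 0.01 at these sites and at -0.01 upstream.

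The level of the whole set moved from one exposure of a site to another. At the entry the median feature stood at -0.75, -1.19 and -0.45 in exposures 1, 2 and 3. At downstream 1 it stood at -0.49, -0.92 and -0.45, and at downstream 2 at -1.31, -0.75 and -0.65. The lowest median was that of exposure 2 at the entry and at downstream 1, and that of exposure 1 at downstream 2. Upstream the median was -0.12, 0.64 and 0.03, so upstream exposure 2 was the one exposure with a median far above 0. Averaged over exposures, the medians were -0.79 ± 0.37 for entry water, -0.62 ± 0.26 for downstream 1 water, -0.90 ± 0.35 for downstream 2 water and 0.19 ± 0.40 for upstream water (SD, n = 3). Over all tested features the median stayed between -0.01 and 0.03 in every exposure, as the centring of arrays requires.

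**Figure D1:**
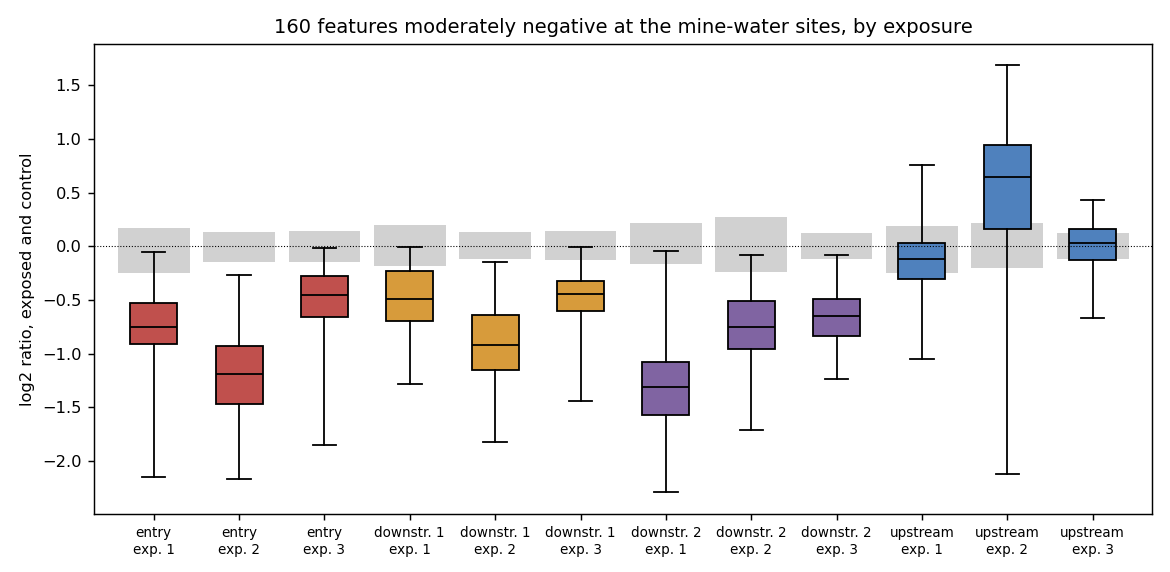
Log2 ratios of the 160 features in each of 12 exposures, by site. Boxes span the quartiles with the median as a line, whiskers reach the lowest and highest feature, and grey bands span the quartiles of all tested features. The medians run from -1.31 to -0.45 in the 9 mine-water exposures, and the upstream medians are -0.12, 0.64 and 0.03.

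Tested feature by feature, most did not pass at any one site although all were chosen for being negative. In a limma fit of all 12 exposures, with Benjamini-Hochberg adjustment over all tested features, 52 of 160 were called negative at the entry at an adjusted p under 0.05. The share of all tested features called negative there was 2.83%. At downstream 1 the count was 20 (1.07% of all tested features), and at downstream 2 it was 65 (3.14%). Nothing is read from these counts, since the same values chose the features. At all 3 sites 18 features were called, at 2 sites 25, at 1 site 33 and at none 84. No share over all tested features is given for these 4 numbers. The rule held the level within narrow limits, so that a call turns mainly on the spread between exposures, and the called and uncalled features are not set against each other. Of single-site calls, 23 were at downstream 2, 10 at the entry and 0 at downstream 1.

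Fewer features passed with any 1 exposure of a site left out. The share of all tested features called is not given for these fits. A change in the counts may therefore hold for all features alike. At the entry the count was 27, 9 and 35 without exposure 1, 2 and 3. At downstream 1 it was 4, 2 and 3 without exposure 1, 2 and 3. At downstream 2 it was 16, 38 and 46 without exposure 1, 2 and 3. With each site fitted alone 0 features passed at any of the 3. With a replicate block on exposure number, 11 passed at downstream 1.

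The 6 features that were called at all 3 sites with the lowest mean were read exposure by exposure. P10DC8 was at -0.83, -0.91 and -0.95 at the entry, -0.65, -0.82 and -1.44 at downstream 1 and -0.92, -0.98 and -1.05 at downstream 2, against -0.04, 0.14 and -0.10 upstream. All 9 mine-water exposures of this feature lay below all 3 upstream ones, and only downstream 1 was spread out. Its site means were -0.90 ± 0.06, -0.97 ± 0.42 and -0.99 ± 0.07 (SD, n = 3), with limma adjusted p of 0.0025, 0.0024 and 0.0016. P1AA4 was at -0.98, -0.86 and -1.03 at the entry, -0.46, -0.78 and -1.21 at downstream 1 and -0.88, -0.62 and -1.23 at downstream 2, against 0.28, 0.35 and -0.17 upstream. The groups of P1AA4 did not overlap with upstream either, and its entry exposures were the most alike.

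A2A19 was at -1.27, -1.13 and -0.86 at the entry, -0.51, -0.83 and -1.03 at downstream 1 and -0.89, -0.35 and -1.14 at downstream 2, against 0.20, -0.42 and -0.14 upstream. Here downstream 2 exposure 2 lay within the upstream range, while the entry stayed clear of it. P10AE4 was at -0.63, -1.31 and -0.88 at the entry, -0.46, -0.66 and -0.95 at downstream 1 and -1.33, -0.60 and -0.98 at downstream 2, against 0.12, 0.02 and -0.04 upstream. Its upstream exposures were tight around 0, and no mine-water exposure reached them. A6A10 was at -0.98, -1.13 and -0.55 at the entry, -0.93, -0.85 and -0.55 at downstream 1 and -1.31, -0.51 and -0.91 at downstream 2, against 0.24, 0.11 and -0.09 upstream. A6P21 was at -1.36, -1.21 and -0.49 at the entry, -0.91, -0.82 and -0.45 at downstream 1 and -0.89, -0.87 and -0.65 at downstream 2, against 0.23, 0.10 and -0.22 upstream. In both of these A6 features exposure 3 was the least negative at the entry and at downstream 1. With 1 exposure left out, calls were lost while the site means stayed negative. At downstream 1, the calls of A2A19, P10AE4, A6A10 and A6P21 were lost without any 1 exposure of that site, and that of P1AA4 without exposure 2 or 3. Without exposure 1, 2 and 3 the downstream 1 mean was -0.93, -0.77 and -0.67 in A2A19, beside -0.79 with all, and -0.70, -0.74 and -0.89 in A6A10, beside -0.78. In A6P21 it was -0.63, -0.68 and -0.86, beside -0.73. At the entry the call of A6A10 was lost without exposure 1 or 2, those of P10AE4 and A6P21 without exposure 2. At downstream 2 each of P1AA4, A2A19, P10AE4, A6A10 and A6P21 lost its call without exposure 1, A2A19 also without exposure 3 and A6P21 also without exposure 2. P10DC8 kept its calls at all 3 sites without any 1 exposure of the site.

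The steadiest features over the 9 mine-water exposures were P12CF5, P10AE6 and P4AD7. P12CF5 was at -0.66, -0.74 and -0.88 at the entry, -0.78, -0.68 and -0.88 at downstream 1 and -1.01, -0.91 and -1.01 at downstream 2, against 0.03, 0.15 and -0.54 upstream. Its SD over 9 exposures was 0.13, and its range at downstream 2 lay below that at both other mine-water sites. P10AE6 was at -0.45, -0.90 and -0.60 at the entry, -0.43, -0.74 and -0.53 at downstream 1 and -0.92, -0.59 and -0.57 at downstream 2, against 0.28, 0.23 and -0.03 upstream. P4AD7 was at -0.61, -0.70 and -0.57 at the entry, -0.65, -0.49 and -0.29 at downstream 1 and -1.01, -0.71 and -0.77 at downstream 2, against 0.05, -0.39 and -0.43 upstream. The upstream and downstream 1 exposures of P4AD7 overlapped, those of P10AE6 did not.

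**Figure D2:**
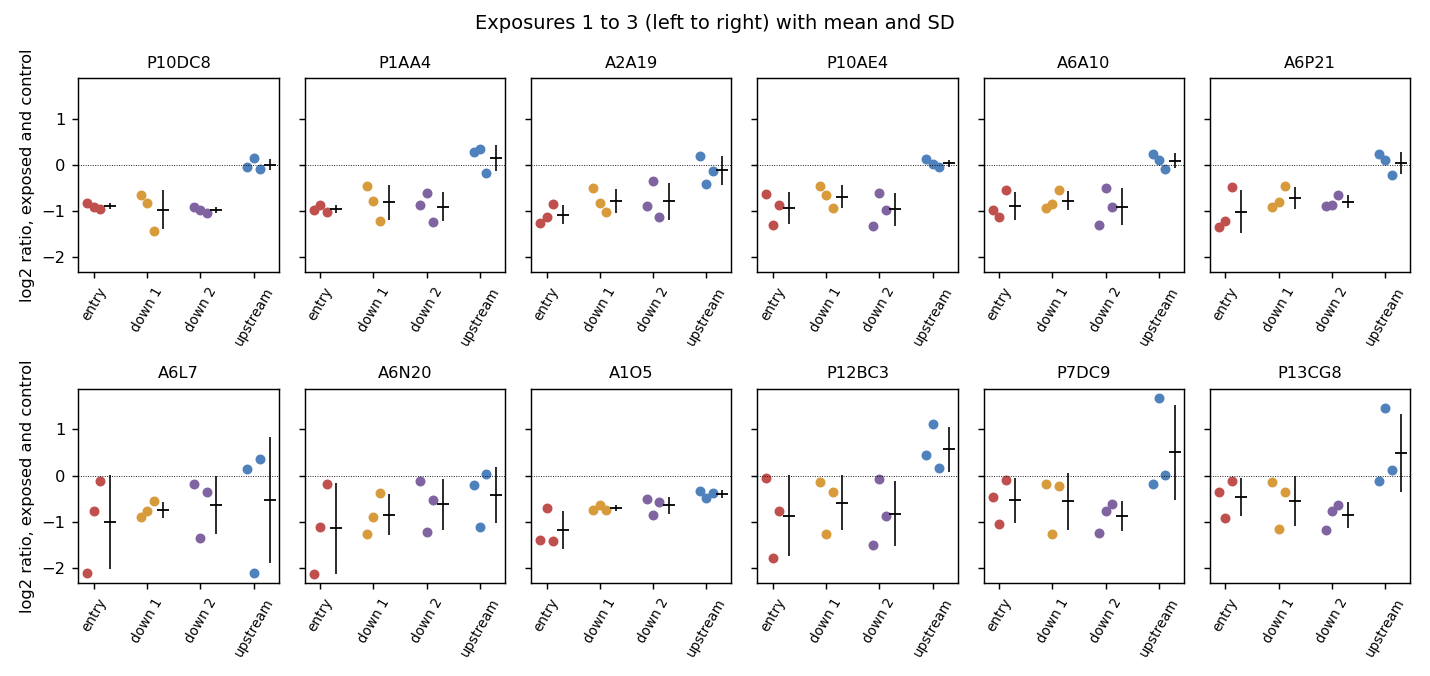
Log2 ratios of 12 features in the 3 exposures of each site (coloured points, exposure 1 to 3 from left to right) with the site mean and SD in black. The upper row holds the 6 features of lowest level called at all 3 mine-water sites, and the lower row the 3 of lowest (A6L7, A6N20, A1O5) and the 3 of highest upstream mean (P12BC3, P7DC9, P13CG8). In the lower row single upstream exposures reach -2.11 and 1.68.

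Upstream water was set against control for these features with values the choice did not use. None of the 160 was called upstream in limma (0% of all 7388 tested), and 3 had an unadjusted p under 0.05, which is 1.88% against 6.50% of all tested features. The 3 were A1O5 and P4AD7, with negative means of -0.40 and -0.26, and A2A6, with a positive one of 0.48. The smaller share does not show smaller values. The median size of the upstream mean, sign ignored, was 0.21 in the 160 and 0.11 over all tested features. For the median member the unadjusted 95% interval around a site mean extended 0.57 each way, against 0.30 for the median tested feature. Features with less spread between exposures had narrower intervals. Site means above 0 were found in 123 features and below 0 in 37, that is a larger share above 0 than over all tested features, of which 52.9% were below 0. The balance differed between exposures, with 110 features below 0 in exposure 1, 27 in exposure 2 and 65 in exposure 3. Without exposure 2 the median upstream mean was -0.03 in place of 0.16. Read from arrays with the exposed RNA in Cy5 dye alone it was 0.284, and with it in Cy3 dye alone 0.0093. Signs differed between the 3 upstream exposures in 143 features (89.4%, against 80.3% of 7215 tested features with all 3). All 3 exposures were above 0 in 15 (9.38%, against 11.3%) and below 0 in 2 (1.25%, against 8.41%), which were A1O5 and P6CC11.

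The features at the ends of the upstream range show how far single exposures reached. A6L7 had the lowest upstream mean, at -0.54 ± 1.37 (SD, n = 3), from 0.13, -2.11 and 0.36. A6N20 followed at -0.21, -1.11 and 0.04. In both, exposure 2 was the low one, opposite to most of the set, and at the entry exposure 1 stood lowest, at -2.12 in A6L7 and -2.15 in A6N20. A1O5 was at -1.4, -0.71 and -1.42 at the entry, -0.75, -0.63 and -0.75 at downstream 1 and -0.50, -0.86 and -0.58 at downstream 2, against -0.33, -0.49 and -0.38 upstream. It was negative in all 12 exposures, with downstream 2 nearest to upstream. P12BC3, P7DC9 and P13CG8 had the highest upstream means, at 0.57, 0.50 and 0.49. Their upstream exposure 2 stood at 1.11, 1.68 and 1.47, and the other upstream exposures of P7DC9 and P13CG8 lay between -0.19 and 0.13.

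Most of the 160 moved together between the exposures of one site. Deviations of each exposure from its site mean were taken over the 12 exposures, and each feature was set against the mean of the other 159. The correlation had a median of 0.792 and was positive in 146 features and above 0.8 in 78 (48.8%). Among 6791 other features with all values, 3.80% correlated above 0.8 with the mean of the 160, and their median was -0.01. The features share arrays and control RNA, and these correlations only describe them. A single component held 67.1% of the squared deviations. Entry exposure 2 was the lowest of its site in 127 features (79.4%, against 34.9% of all tested features), downstream 1 exposure 2 in 100 (62.5%, against 35.3%) and downstream 2 exposure 1 in 135 (84.4%, against 35.8%). Upstream, exposure 2 was the highest in 122 (76.2%, against 36.5%). The rule chose on site means and signs and set no order among the exposures of a site.

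**Figure D3:**
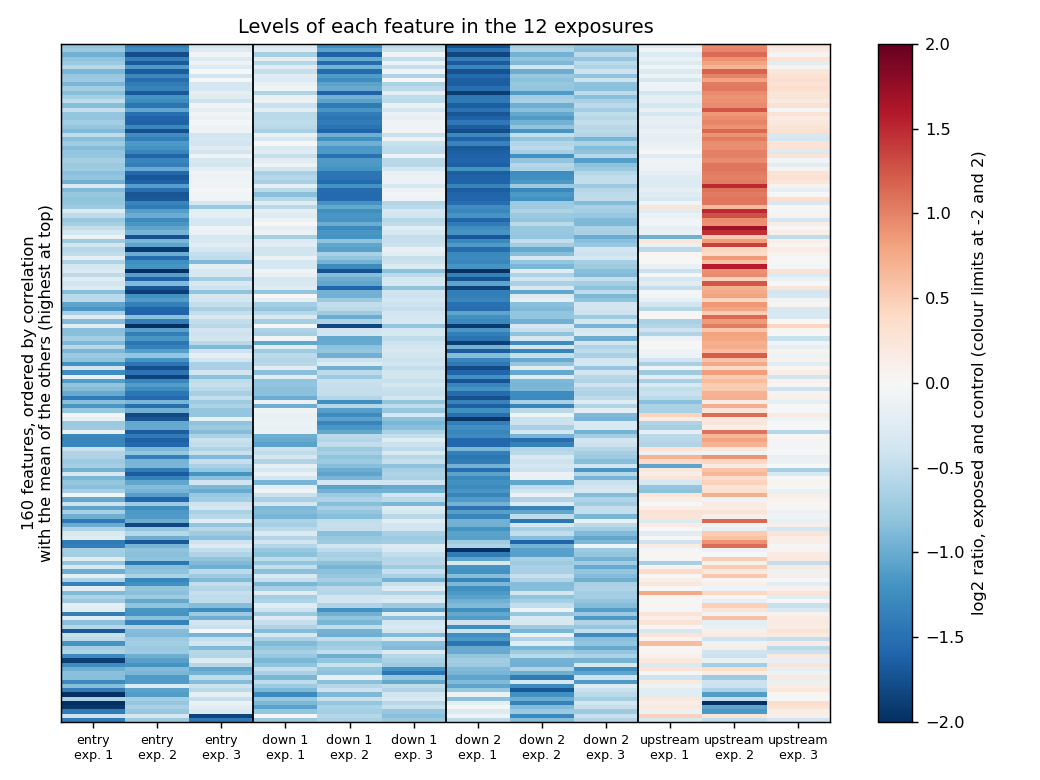
Log2 ratios of the 160 features (rows) in the 12 exposures (columns, by site), blue for negative and red for positive, with colours ending at -2 and 2. Rows are ordered by the correlation of their deviations with the mean of the other features, from 0.97 at the top to -0.73 at the bottom. The upper rows share dark entry exposure 2 and downstream 2 exposure 1 and a red upstream exposure 2, and the lowest rows do not.

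A minority went against this shared movement. In 14 features the correlation with the other members was below 0, and 11 of these 14 were below 0 in upstream exposure 2, with a median of -0.56 there. In the 78 features that correlated above 0.8, upstream exposure 2 lay between 0.38 and 1.68. A1O5 had the lowest correlation, at -0.73, and A6L7, A6N20, A2A19, P10DC8 and P1AA4 were also among the 14. Both subsets had a median level of -0.80 over the mine-water sites. The spread between upstream exposures was a median SD of 0.535 in the 160 and 0.259 over all tested features. It was larger in the 160 at the other sites too, at 0.450 against 0.174 for the entry. For downstream 1 it was 0.336 against 0.151, and for downstream 2 it was 0.464 against 0.205.

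Mine-water exposures were then set against upstream exposures, and since the choice used one side of each difference the counts are description. The median difference was -0.97 for the entry, -0.76 for downstream 1 and -1.06 for downstream 2. All 9 mine-water exposures lay below all 3 upstream exposures in 73 of 160 features (45.6%), against 3.11% of all tested features. In limma, 9 of the 160 were called for the entry against upstream (0.636% of all tested features were called negative), 1 for downstream 1 (0.338%) and 12 for downstream 2 (0.772%). P10DC8 was called at all 3, by -0.90, -0.97 and -0.99 (SE 0.18 each, limma adjusted p 0.043, 0.045 and 0.03).

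The largest called differences for the entry were those of P3BD8, A6H16 and A2A6. P3BD8 was at -1.0, -1.82 and -0.79 at the entry, against 0.17, -0.04 and 0.11 upstream, a difference of -1.28 (SE 0.25, limma adjusted p 0.04). Its downstream 1 exposures, at -0.66, -0.46 and -0.39, lay above all entry ones. A6H16 was at -0.71, -1.39 and -0.76 at the entry, against 0.25, 0.64 and 0.02 upstream, a difference of -1.26 (SE 0.25, limma adjusted p 0.044). For A2A6 the entry exposures were -0.88, -0.84 and -0.46 and the downstream 2 exposures -1.15, -0.37 and -0.69, against 0.75, 0.42 and 0.27 upstream. Its differences were -1.21 and -1.22 (SE 0.22 each, limma adjusted p 0.03 and 0.028), and all 3 of its upstream exposures were above 0. P8DB10 was at -1.09, -0.85 and -1.03 at downstream 2, against 0.02, 0.58 and 0.12 upstream, a difference of -1.23 (SE 0.20, limma adjusted p 0.024). P11CD8 was at -1.17, -0.65 and -1.0 at downstream 2, against 0.07, 0.51 and 0.18 upstream, a difference of -1.19 (SE 0.21, limma adjusted p 0.028). In none of these features did the compared groups overlap.

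Fewer features passed here too with 1 exposure left out, again without a share over all tested features beside the counts. Without upstream exposure 1 or exposure 2 none of the 160 was called at any site, and without upstream exposure 3 the counts were 1, 1 and 4 for the entry, downstream 1 and downstream 2. The calls of P3BD8, A6H16 and A2A6 for the entry were lost there too, as was that of P10DC8 for downstream 1. So were those of P8DB10, A2A6 and P11CD8 for downstream 2. Without entry exposure 1, 2 and 3 the entry count was 4, 1 and 5, and without downstream 1 exposure 2 or 3 the downstream 1 count was 0. Without downstream 2 exposure 1 the downstream 2 count was 1, and without exposure 2 or 3 it was 8. With an upstream exposure left out, the differences themselves stayed about as large when calls were lost. Without upstream exposure 1 and 2 that of P3BD8 was -1.24 and -1.34, beside -1.28 with all exposures, and that of P8DB10 was -1.34 and -1.06, beside -1.23. With a mine-water exposure left out the differences moved both ways. Without entry exposure 1, 2 and 3 that of P3BD8 was -1.39, -0.97 and -1.49, and the call was lost without exposure 1 or 2. Without downstream 1 exposure 1, 2 and 3 that of P10DC8 was -1.13, -1.05 and -0.74, and the call was lost without exposure 2 or 3. Exposures of downstream 2 and upstream that share a number deviated together, and with both sites alone and paired by number 0 features were called, as in the unpaired fit of these sites alone.

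The 3 mine-water sites were compared with each other, for which the rule set only common bounds. None of the 160 passed limma's adjusted threshold in any of the 3 comparisons (0% of all tested features in each). At an unadjusted p under 0.05 there were 3 of 160 for downstream 1 against the entry (1.88%, against 0.555% of all tested features), 5 for downstream 2 against the entry (3.12%, against 3.42%) and 7 for downstream 2 against downstream 1 (4.38%, against 3.55%). The shares in both downstream 2 comparisons were near those of all tested features. The median difference was 0.16 for downstream 1 minus entry, -0.12 for downstream 2 minus entry and -0.31 for downstream 2 minus downstream 1, against 0.04, 0.01 and -0.02 over all tested features. For the median member the unadjusted 95% interval around a site difference extended 0.80 each way. It was narrower in features with less spread, and the sites are not shown to be alike.

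Downstream 1 was the least negative of the 3 sites in 124 features, the entry in 21 and downstream 2 in 15. Downstream 2 was the most negative in 108, the entry in 50 and downstream 1 in 2, and 88 features had the full order of downstream 2 below the entry below downstream 1. By exposure number, the median feature of downstream 1 minus that of the entry was 0.25, 0.27 and 0.0016, and these 2 sites deviated together by number. Downstream 2 deviated together with these sites by number in exposure 3 only, at r of 0.45 with the entry and 0.50 with downstream 1. In exposures 1 and 2 r was -0.46 and -0.39 with the entry, and -0.19 and -0.31 with downstream 1. By number, its median minus that of the entry was -0.56, 0.43 and -0.20. Minus that of downstream 1 it was -0.81, 0.17 and -0.20. The exposure medians of downstream 2, from -1.31 to -0.65, overlapped those of the entry and of downstream 1.

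Some features separated 2 mine-water sites without overlap of their exposures, and shares are set against 6951 tested features with all exposures. For downstream 1 against the entry 4 lay wholly above (2.5%, against 3.34%) and 0 below (0%, against 1.8%). For downstream 2 against the entry 1 lay above (0.625%, against 3.14%) and 3 below (1.88%, against 3.42%). For downstream 2 against downstream 1 there were 0 above (0%, against 3.35%) and 9 below (5.62%, against 4.52%). None of the shares of the 160 was far above that of all features. P6CG3 was at -0.55, -0.27 and -0.38 at downstream 1, against -1.21, -1.47 and -0.64 at the entry, a difference of 0.71 (SE 0.38, limma adjusted p 1). P4AB11 was at -0.32, -0.71 and -0.69 at downstream 2, against -0.77, -1.45 and -0.88 at the entry, a difference of 0.46 (SE 0.23, limma adjusted p 0.996). It ran against the median, being least negative at downstream 2. P11DE8 was at -1.24, -0.71 and -0.78 at downstream 2, against -0.57, -0.59 and -0.45 at the entry, a difference of -0.37 (SE 0.15, limma adjusted p 0.996). P7AD12 was at -0.71, -1.61 and -0.90 at downstream 2, against -0.37, -0.71 and -0.70 at downstream 1, a difference of -0.48 (SE 0.40, limma adjusted p 0.999). Here the groups were parted by a narrow margin only.

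Exposures that took no part in the choice gave a check with the same measure. The rule was applied without 1 mine-water exposure, and the features it then chose were read in that exposure. It chose between 113 and 179 features, and 96.6% of all values in the exposures left out were below 0. The lowest share was 91.1% in downstream 2 exposure 2 and the highest 99.4% in entry exposure 1. Between 45.4% and 52.4% of all tested features were below 0 in the same exposures. The median of the chosen features was -0.74, -1.30 and -0.45 in entry exposures 1, 2 and 3, -0.46, -0.73 and -0.42 in those of downstream 1 and -1.4, -0.66 and -0.68 in those of downstream 2. The widest gap to the median of the 160 was in downstream 1 exposure 2, at -0.73 beside -0.92. The fewest features, 113, were chosen without that exposure. Whether the exposures share control RNA is not given, and the part of a common control in these shares was not tested.

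**Figure D4:**
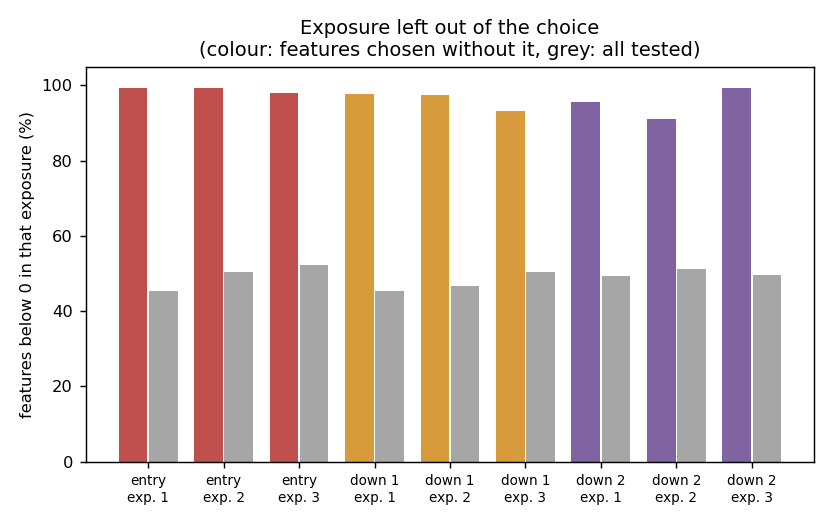
Share of features below 0 in each mine-water exposure, for features chosen without that exposure (coloured by site) and for all tested features (grey). The coloured bars lie between 91.1% and 99.4% and the grey bars between 45.4% and 52.4%.

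Both dye orientations gave negative values, with less negative ones when the exposed RNA was in Cy5. Over the 3 mine-water sites the median feature was at -0.67 with the exposed RNA in Cy5 and at -0.88 with it in Cy3, and all 160 were below 0 in each. The rule bounded the mean of both orientations below 0, so negative values in each were largely set by the choice and are description. Every measured mine-water array of an orientation was below 0 in 109 features for Cy5 and in 142 for Cy3. A dye effect, taken as (Cy5 minus Cy3) / 2 over the arrays of an exposure, was positive and passed limma's threshold in 96 features (60%, against 32.2% of all tested features) and passed in either direction in 100 (62.5%, against 56.3%). The median dye effect was 0.12, and it cancels where both orientations are averaged. P4BD7 and P12CF5 had the largest, 0.31 each (SE 0.04 each, limma adjusted p 2.9e-05 each). The rule applied to arrays with exposed RNA in Cy5 alone gave 138 features, 74 of them shared with the 160 (53.6% of the 138 and 46.2% of the 160). With Cy3 alone it gave 137, of which 100 were shared (73% of the 137 and 62.5% of the 160). Membership thus depended on which arrays were read.

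**Figure D5:**
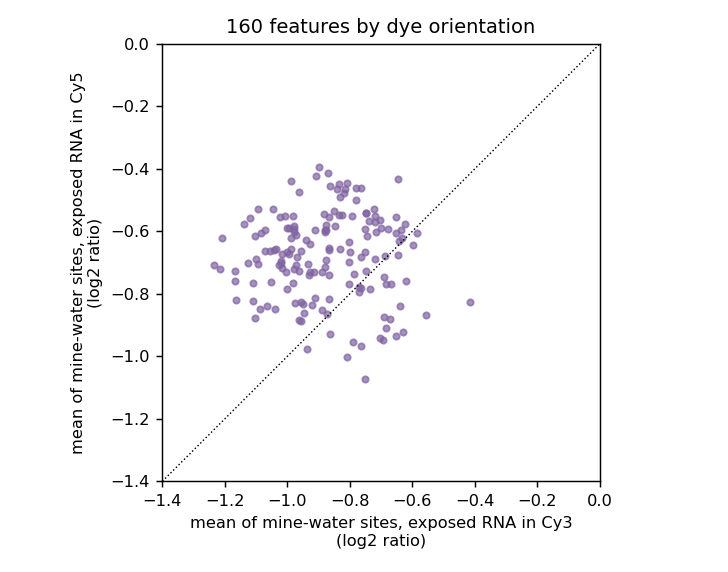
Mean log2 ratio over the 3 mine-water sites for each of the 160 features, from arrays with exposed RNA in Cy3 (horizontal) and in Cy5 (vertical), with the line of equal values dotted. Medians are -0.67 in Cy5 and -0.88 in Cy3, and most points lie above the line.

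The array IDs of the 160 were unevenly spread. IDs start with A or P and a number, and what these mark is not given. Of features starting with A6, 23 of 380 tested were members (6.05%, against 2.17% of all tested features), while the other A features gave 14 of 2072 (0.676%) and P features 123 of 4936 (2.49%). Among P numbers the share ran from 1.3% in P2 to 3.71% in P9. The 23 A6 members stood at a median of -0.77 in entry water, -0.71 in downstream 1 water, -0.86 in downstream 2 water and 0.19 in upstream water, and the other 137 at -0.82, -0.60, -0.91 and 0.14. All 380 A6 features had medians of -0.10, -0.05, -0.03 and 0.02 at these sites, so the block as a whole was near 0. Whether spots of one ID block hold the same transcript cannot be told from the files.

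Features just inside and just outside the limits differed little. P9BH7 and P5DF2, nearest to the upper limit, had a mean of site means of -0.60 each, and A1F21 and A2C20 beyond it -0.59 each. P13BB6 and P6BG11 stood at -0.99 each above the lower limit, and P6BC3 and P3BG7 at -1.0 each below it. In all, 325 features met the other criteria, 23 with a mean above -0.6 and 142 at -1.0 or below. These 142 strongly negative features had exposure medians of -0.05, 0.57 and -0.06 upstream, beside -0.12, 0.64 and 0.03 in the 160, and their lowest exposure was also entry exposure 2 and downstream 2 exposure 1. Of the 142, 19 were A6 features, which is 5.0% of the A6 features tested, against 1.92% of all tested features. For the 160 these shares were 6.05% and 2.17%, so the larger A6 share was not particular to the 160. No test was made of any difference between these 2 sets.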

How the data were processed

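Whole-animal RNA of 12 exposures was hybridised with control RNA on 24 arrays of 2 colours, with dyes exchanged between both arrays of an exposure, per the labels. The deposited values are log ratios of the channels, taken as log2. For their base, direction, background correction and normalization no source used here gives a statement, and the deposited array medians lay between -0.0359 and 0.0257. Dye-swap arrays of an exposure correlated at r of 0.151 to 0.777, with the lowest in upstream exposure 3. The dye effect, (Cy5 minus Cy3) / 2, correlated at 0.383 to 0.812 over 66 pairs of exposures. Both ranges lie above 0, so all arrays run one way. Among arrays that share a dye orientation r lay between -0.258 and 0.828.

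Arrays were centred on the median and dye swaps averaged, and 1 exposure is 1 replicate. An exposure with 1 measured array takes that value. limma 3.58.1 (R 4.3.3; lmFit, eBayes; 8 residual and 1.79 prior degrees of freedom) was fitted on 7388 features, with Benjamini-Hochberg adjusted p under 0.05 as called. Steps were tested on simulated data. The labels do not say that exposures came from separate cultures, so p-values cover only how far these exposures scatter, which can be technical. Same-numbered exposures correlated in their deviations from site means at 0.404 or more for downstream 1 with the entry and 0.248 or more for downstream 2 with upstream. For the other 4 pairs of sites the lowest r was below -0.3, although exposure 3 correlated at 0.405 to 0.547 in these. So only downstream 1 with the entry and downstream 2 with upstream are taken as paired, on the data alone. Features named are those of lowest level called at all 3 sites, of extreme upstream mean, of largest called or non-overlapping site differences, of smallest SD and of largest dye effect. The members, lists and rules were chosen with earlier results of these data known. Figures used matplotlib 3.10.9 in Python 3.11.15. Alternatives were deposited or scaled arrays, 1 dye orientation, 3 exposures at each site, array weights, the compared sites alone, the exposure number as a block, all 24 arrays and leaving out each exposure.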

Additional observations from a re-analysis of the deposited data

Results flagged for a closer look

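Differences between a mine-water site and upstream that passed limma's threshold were found in 9 features for the entry, 1 for downstream 1 and 12 for downstream 2. The features had been chosen by their mine-water values, so the difference is not independent of the choice. The named ones were P3BD8 (-1.28), A6H16 (-1.26) and A2A6 (-1.21) for the entry, P10DC8 (-0.97) for downstream 1, and P8DB10 (-1.23), A2A6 (-1.22) and P11CD8 (-1.19) for downstream 2. Each of these named calls was lost without any 1 upstream exposure, while the differences stayed about as large. Without exposure 1 and 2 they were -1.29 and -1.09 in A6H16, -1.07 and -1.24 in A2A6 for the entry, and -0.99 and -0.90 in P10DC8.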

How the results depend on the processing

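No member was called upstream or between mine-water sites under any alternative tried. Counts called negative against control (52 at the entry, 20 at downstream 1, 65 at downstream 2) were 0 at each site with the sites of the comparison alone. They were 128, 59 and 147 with all 24 arrays. That fit held a dye term and a common correlation of 0.509 between the arrays of an exposure. With array weights they were 104 at the entry and 54 at downstream 1. At downstream 1 they were 8 with arrays scaled, 9 with exposed RNA in Cy5 alone, 52 with Cy3 alone and 11 with the replicate block. In the same order, these settings gave 70, 45, 58 and 51 at the entry and 80, 75, 67 and 58 at downstream 2. Leaving out 1 exposure gave 9 to 35 at the entry, 2 to 4 at downstream 1 and 16 to 46 at downstream 2. Against upstream (9, 1 and 12 in the same order) the counts were 72, 22 and 104 with all 24 arrays, 16, 0 and 30 with Cy5 alone, 1, 0 and 1 with Cy3 alone, 4, 0 and 3 with array weights, and 0 at each with the sites alone, blocked or not. The replicate block in the full fit gave 4 and 3 for the entry and downstream 1, and 9 for downstream 2. Scaled arrays gave 0 for downstream 1. Leaving out 1 exposure gave 0 to 5 for the entry, 0 to 1 for downstream 1 and 0 to 8 for downstream 2. The upstream median of 0.16 was -0.0308 to 0.307 without 1 upstream exposure, negative only without exposure 2. The causes were not tested. The number of arrays and exposures limits the precision, since spot intensities were not used here.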
